A study of Mus musculus with 8 samples.

Results

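The CpGs described here lie in 3 windows around mouse imprinted regions known to carry methylation on the paternal allele: the H19 control region and gene (mm9 chr7:149760000-149770000), the Dlk1-Meg3 intergenic region and Meg3 promoter (mm9 chr12:110762000-110782000) and the Rasgrf1 region (mm9 chr9:89768000-89778000). Within the windows the CpGs were taken by position alone, but the regions were chosen with earlier results of these data known. No mm9 gene annotation was used, so the control regions, CTCF sites and genes were not placed within the windows, and which CpGs lie in the imprinted marks themselves was not determined. The windows held 32 of the 1026288 CpGs listed in at least 1 library, and 21 of the 622768 CpGs with at least 10 reads in all 8 libraries. Of these 21, 8 were in the H19 region, 10 in the Dlk1-Meg3 region and 3 in the Rasgrf1 region. Each library listed between 23 and 29 of the 32 CpGs, with 10 to 96 reads at each.

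The libraries are reduced representation bisulfite sequencing of mouse embryonic stem cells of strain 129/SvP, plated at low density in medium with serum and LIF, the cytokine that maintains these cells. Cells were left untreated, or given L-proline at 1 mM, vitamin C at 500 µM, or the 2 agents together, and collected on day 2 or day 5. Each of the 4 treatments had 1 library on each day, so no group had a replicate. The only measure of error between libraries was the spread over 4 matched pairs that differed in 1 factor and shared the others. This spread also holds any real change of 1 factor's effect with another factor, and the 2 cannot be told apart. With 4 pairs, the two-sided exact permutation test that flips the signs of the differences cannot give a p below 0.125. The reads do not tell the parental alleles apart, and bisulfite does not separate methylated from hydroxymethylated cytosine. No expression was measured, so the level of the imprinted RNAs is not analysed here.

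At a paternally methylated imprint, the sperm-derived copy of a control region carries methylation and the egg-derived copy does not, so a bulk sample of normal cells reads at intermediate methylation. At H19, the unmethylated maternal copy binds the insulator protein CTCF, which keeps the growth factor gene Igf2 away from shared enhancers, and the maternal allele makes the non-coding RNA H19. At Dlk1-Meg3, the methylated paternal copy silences the non-coding RNA Meg3 and its downstream RNAs and allows expression of Dlk1, a transmembrane ligand related to the Notch ligands. At Rasgrf1, which encodes a Ras guanine nucleotide exchange factor, paternal methylation upstream of the gene accompanies paternal expression. These marks have to be maintained through each round of DNA replication. Embryonic stem cells in culture are known to lose or gain such marks at some loci, Dlk1-Meg3 among them. Vitamin C is a cofactor of the TET enzymes, which oxidise methylated cytosine.

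Promoter sequence of the genes under the control of these regions could be read for Meg3 and for a promoter of Igf2, and both are shown because they give the measured CpGs at the genes that the imprints regulate. The sequences are from RefSeq on GRCm38.p6, run 5′ to 3′ on the gene's strand, and span 250 bases before to 50 bases after the gene's start. They were placed on mm9 by the spacing of their CpGs. The Meg3 window lay at chr12:110778956-110779255 on the plus strand, where 5 of its 13 CpGs matched listed positions against 3 at the next best place. The Igf2 window lay at chr7:149844660-149844959 on the minus strand, where 8 of 24 CpGs matched against 5 at the next best place. Capitals mark the CpGs that were measured in at least 1 library.
Meg3 promoter: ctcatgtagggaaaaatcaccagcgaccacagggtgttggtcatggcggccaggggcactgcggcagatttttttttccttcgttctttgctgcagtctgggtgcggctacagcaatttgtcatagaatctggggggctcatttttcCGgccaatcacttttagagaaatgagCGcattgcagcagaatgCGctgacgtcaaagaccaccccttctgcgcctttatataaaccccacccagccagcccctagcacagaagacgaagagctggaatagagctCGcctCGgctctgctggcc
Igf2 promoter: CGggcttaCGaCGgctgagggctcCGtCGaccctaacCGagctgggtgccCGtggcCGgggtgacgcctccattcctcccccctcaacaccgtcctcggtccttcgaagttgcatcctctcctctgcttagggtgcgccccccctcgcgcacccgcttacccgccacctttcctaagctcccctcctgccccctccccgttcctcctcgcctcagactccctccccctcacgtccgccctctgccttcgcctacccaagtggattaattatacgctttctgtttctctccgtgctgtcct
The 5 capital CpGs of Meg3 are inside the Dlk1-Meg3 window, and the 8 of Igf2 lie outside the H19 window. All 8 Igf2 CpGs were covered in every library and their mean level was between 0% and 1.26%, with a mean difference with vitamin C of -0.0222 ± 0.651 percentage points (SD, 4 matched pairs).

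The 3 regions differed in their level without vitamin C. The mean methylation of the H19 CpGs was 51.4% in untreated and 55.6% in L-proline cells of day 2, then 53.1% and 51.7% in those of day 5. In the Dlk1-Meg3 region the same 4 libraries read 46.5% and 56.6% on day 2 and 47.9% and 69.0% on day 5. The Rasgrf1 CpGs read 80.03% and 89.3% on day 2 and 85.7% and 85.6% on day 5. The H19 and Dlk1-Meg3 regions were therefore near the middle of the scale, except for the L-proline library of day 5 at Dlk1-Meg3, and the 3 Rasgrf1 CpGs were well above it in all 4 libraries. The Rasgrf1 level thus goes against the intermediate level that marks an imprint, and these 3 CpGs are described as CpGs of the Rasgrf1 window only. Of the 21 CpGs, 12 (57.1%) stayed between 20% and 80% in every library. The same held for 2.06% of all 622768 CpGs, and for 15.9% of those whose mean over the libraries was between 20% and 80%. Coverage was not matched, with a median of 39.9 reads for the 21 CpGs, 36.6 for all and 31.6 for those of intermediate mean.

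With vitamin C the H19 CpGs read 41.4% alone and 48.6% jointly with L-proline at day 2, then 44.3% and 39.4% at day 5. The Dlk1-Meg3 CpGs read 40.7% and 52.3% on day 2 and 40.5% and 49.8% on day 5. The Rasgrf1 CpGs read 53.2% and 68.2% on day 2 and 63.0% and 56.4% on day 5. The 4 vitamin C libraries lay below the other 4 with no overlap at H19 and at Rasgrf1, and the groups overlapped at Dlk1-Meg3. This separation was not particular to the regions. It also held for the mean of all CpGs covered in every library, with a vitamin C difference of -4.14 ± 1.82 points (SD, 4 pairs). CpGs outside the regions with a mean between 20% and 80% were separated too. So were the CpGs within 100 kb of the H19 and Rasgrf1 regions, while those around Dlk1-Meg3 overlapped.

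**Figure D1:**
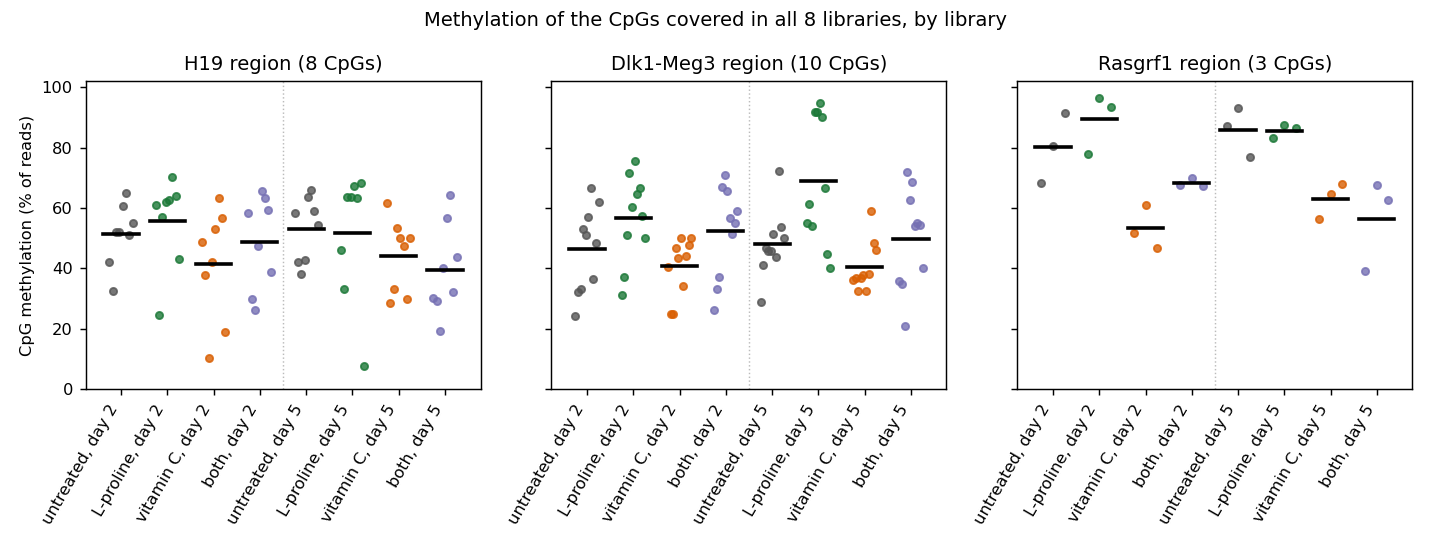
CpG methylation (y axis, % of reads) of the 3 regions in each of the 8 libraries (x axis, by day and treatment), with 1 point per CpG covered in all libraries and a bar at their mean. At Rasgrf1 the means of the 4 libraries without vitamin C lie between 80.03% and 89.3% and those of the 4 with it between 53.2% and 68.2%, while H19 and Dlk1-Meg3 stay nearer the middle of the scale.

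Of the 3 regions, Rasgrf1 had the largest difference with vitamin C. At mm9 chr9:89769450 the levels without vitamin C were 68.2%, 77.8%, 87.1% and 83.0% (untreated and L-proline on day 2, then on day 5), and with it 51.9%, 67.5%, 56.5% and 39.1% (alone and beside L-proline, in the same order of days). At chr9:89769488 the corresponding levels were 80.6%, 96.6%, 93.0% and 87.4% without and 61.0%, 69.8%, 64.6% and 67.6% with vitamin C. At chr9:89769529 they were 91.3%, 93.5%, 76.9% and 86.5% without and 46.9%, 67.4%, 68.0% and 62.5% with vitamin C. At each of the 3 CpGs every vitamin C library was below every other library. The 3 CpGs lie close enough to be read on the same fragments, so they are not independent of each other.

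Averaged over the libraries, Rasgrf1 stood at 85.2% without vitamin C and at 60.2% where it was added. The difference was -24.9 ± 3.74 points (SD over 4 matched pairs, lower in 4 of 4, exact permutation p = 0.125). The pair differences were -26.8 and -21.1 on day 2 and -22.6 and -29.2 on day 5, so no pair carried the difference alone. Reads summed over the 3 CpGs gave 78.4% in untreated cells on day 2 (95% Wilson interval 70.6% to 84.5%, 134 reads) and 55.1% with vitamin C (46.1% to 63.8%, 118 reads). On day 5 they gave 87.7% (80.4% to 92.5%, 114 reads) and 63.5% (53.6% to 72.5%, 96 reads). The intervals of these vitamin C and untreated libraries did not overlap on either day. They count a read at each CpG that it covers, so they are too narrow. At chr9:89769488 alone the intervals overlapped on day 2, at 69.6% to 88.3% untreated and 48.3% to 72.4% with vitamin C. On day 5 they were 83.3% to 97.2% and 50.4% to 76.6%, with no overlap.

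A fit over all 1 kb tiles of the genome gave the Rasgrf1 tile a call. A tile needed 3 or more CpGs that every library covered by 10 reads. limma modelled log2 of methylated over unmethylated reads by vitamin C, by L-proline and by day. Its residual, like the spread of the pairs, mixes error with any dependence of 1 factor's effect on another. Calls required a p below 0.05 after Benjamini-Hochberg adjustment and a shift of 10 points or more. For vitamin C 11645 of 50167 tiles, or 23.2%, were called lower. The Rasgrf1 tile (chr9:89769001-89770000, 76 to 177 reads per library) was among those called lower, with a pooled difference of -24.6 ± 2.36 points (SD, 4 pairs, lower in 4 of 4) and a log2 coefficient of -1.94 (SE 0.41, limma adjusted p = 0.0126). It was the 1 tile called of the 4 tiles in the 3 regions that could be tested, a count near the 23.2% of all tiles. When each library was centred to the same median over all tiles, its coefficient was -0.49 with a limma adjusted p of 0.476, and the tile was not called. That centring moved the median coefficient of all tiles from -0.93 to 0.52, past 0. Taken against the median tile of the fit to the libraries as deposited, the coefficient of the Rasgrf1 tile was -1.01, with no test of that difference.

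The H19 region was -9.48 ± 2.20 points with vitamin C (SD, 4 pairs, lower in 4 of 4, exact sign-flip permutation p = 0.125). The pair differences were -9.94 and -6.97 on day 2 and -8.79 and -12.2 on day 5. With 20 reads as the minimum it was -6.76, and over all CpGs that each library listed, a set that differs between libraries, it was -4.75, both lower in 3 of 4 pairs. The 8 H19 CpGs form 3 clusters separated by more than 500 bp, and the middle cluster of 5 CpGs (chr7:149764070-149764147) held the region's largest cluster difference. It read 56.2% and 63.2% without vitamin C on day 2 and 53.9% and 65.2% on day 5, against 45.2% and 52.3% with it on day 2 and 42.8% and 42.5% on day 5. The groups did not overlap, and the difference was -13.9 ± 5.89 points (SD, 4 pairs, lower in 4 of 4). Without the pair of both agents against L-proline on day 5, it was -11.0. The tile that holds this cluster (chr7:149764001-149765000, 145 to 258 reads per library) had a pooled difference of -13.2 ± 5.81 points and a log2 coefficient of -0.77 (SE 0.35, limma adjusted p = 0.108), and was not called. With libraries centred its coefficient was 0.68, and against the median tile as deposited it was 0.16.

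Within the middle H19 cluster the CpGs were unequal. At chr7:149764070 the levels without vitamin C were 52.2% and 57.1% on day 2 and 38.1% and 63.6% on day 5, and with it 10.5% and 26.3% on day 2 and 33.3% and 19.2% on day 5. All 4 vitamin C libraries lay below the others, by -30.4 ± 18.1 points (SD, 4 pairs). This CpG had 15 to 38 reads per library. The next 4 CpGs had mean differences of -9.44 (chr7:149764096), -7.19 (149764109), -6.50 (149764144) and -16.1 points (149764147), each lower in 3 of 4 pairs and with overlapping groups.

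The lower H19 cluster showed no such order. Its CpGs at chr7:149761873 and 149761917 averaged 37.3% and 42.8% without vitamin C on day 2 and 50.3% and 39.7% on day 5, and 43.3%, 44.1%, 45.1% and 29.7% with it. The groups overlapped, with a difference of -2.0 ± 7.06 points (SD, 4 pairs). Just below them, the CpGs at 149761700 and 149761722 were listed in 4 libraries with 10 to 25 reads, at 70% to 100%. In the same 4 libraries the CpG at 149761873 was between 48.8% and 61.5%, so methylation differed along this short stretch. In the upper cluster 1 CpG, chr7:149767092, was covered in all libraries. It read 55.0% and 43.2% without vitamin C on day 2 and 54.5% and 7.69% on day 5, and 18.9%, 39.0%, 50% and 43.8% with it. The 7.69% in the L-proline library of day 5 rests on 26 reads (95% Wilson interval 2.14% to 24.1%), and the neighbouring CpG at 149767047 read 48.0% in that library. That neighbour was listed in 7 libraries, at 24.3% to 48.0%. A further CpG, 149767135, was listed in 1 library, at 63.6% of 11 reads.

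**Figure D2:**
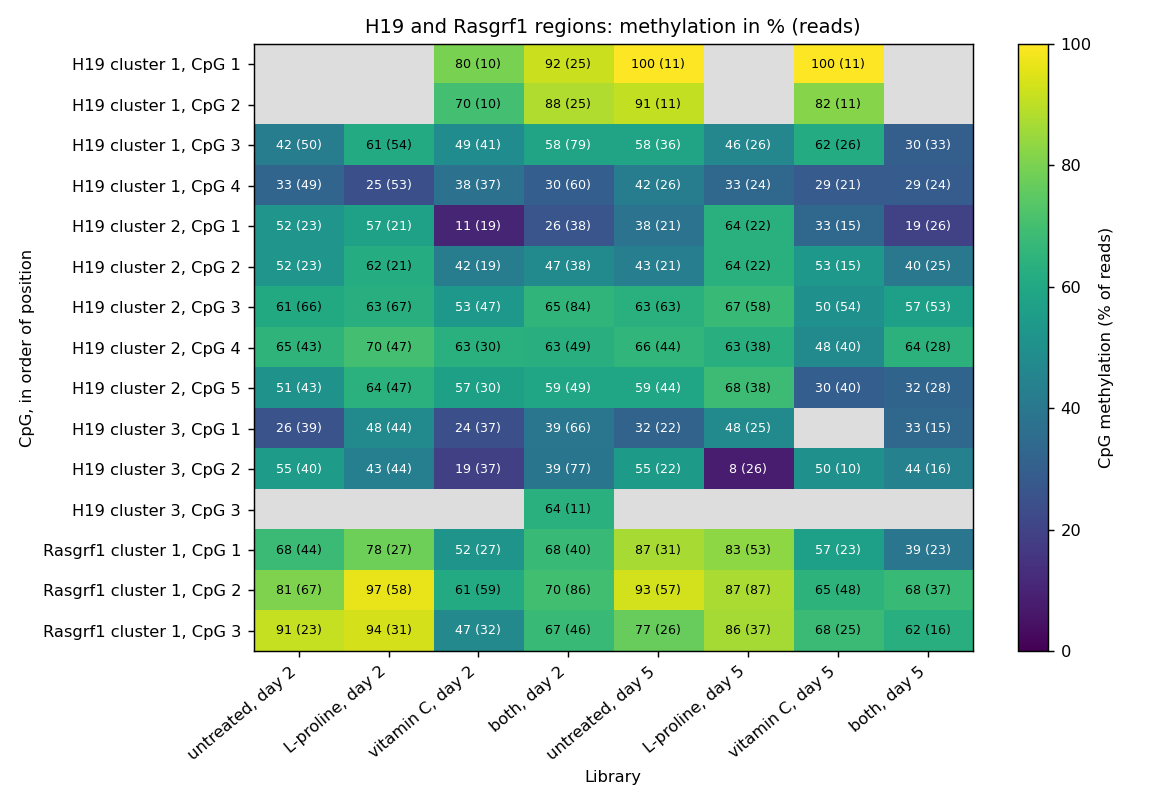
Methylation of every listed CpG at H19 and Rasgrf1 (y axis, in order of position within clusters, numbered from the lowest coordinate) in each library (x axis), as colour and as % of reads with the reads in brackets; grey marks CpGs that a library did not list. The 3 Rasgrf1 CpGs and the first CpG of the second H19 cluster have lower values in all 4 vitamin C libraries than in each of the others.

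The Dlk1-Meg3 region was -9.19 ± 6.81 points with vitamin C (SD, 4 pairs, lower in 4 of 4, exact sign-flip permutation p = 0.125). The pair differences were -5.80 and -4.28 on day 2 and -7.44 and -19.2 on day 5. The last is both agents against L-proline alone, and without it the mean was -5.84. Over all listed CpGs it was -7.99, lower in 3 of 4 pairs. The L-proline values were also ordered at this region. The 4 L-proline libraries read 49.8% to 69.0% and the 4 without it 40.5% to 47.9%, with no overlap. The difference was 13.0 ± 5.46 points (SD, 4 pairs, higher in 4 of 4, exact sign-flip permutation p = 0.125). The pair differences were 10.1 and 11.6 on day 2 and 21.1 and 9.30 on day 5. Over all listed CpGs the difference was 8.57, still higher in 4 of 4. With vitamin C absent or present, L-proline libraries were thus higher on both days. The mean of all CpGs covered in every library was also higher with L-proline in 4 of 4 pairs, with overlapping groups. The same held for CpGs outside the regions with a mean between 20% and 80%. The share of single CpGs whose 4 L-proline libraries all lay above the others is not given, here or for the clusters below. Such a CpG is also higher in all 4 pairs, which held for 6.90% of all CpGs. It held for 29.8% of CpGs with a mean between 20% and 80%.

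The L-proline difference was largest in the middle of 3 CpG clusters, between -14318 and -14260 bp from the Meg3 start. Its 4 CpGs averaged 57.0% in untreated, 68.0% in L-proline, 43.6% in vitamin C and 65.2% in doubly treated cells on day 2. On day 5 the averages were 46.7%, 92.1%, 36.4% and 64.3%. Every L-proline library was above every library without it, by 26.5 ± 14.4 points (SD, 4 pairs). The pair differences were 11.04 and 21.6 on day 2 and 45.4 and 27.9 on day 5. Without L-proline against untreated on day 5 the mean was 20.2. The L-proline library of day 5 stood apart from the other 7. Its pooled level over this cluster was 92.4% (95% Wilson interval 86.5% to 95.8%, 131 reads), against 47.2% in untreated cells of that day (38.7% to 55.9%, 125 reads). The CpGs lie close enough to share reads, which were counted at each CpG, so these intervals are too narrow. At chr12:110764904 alone the intervals were 78.7% to 97.2% (37 reads) and 30.5% to 61.8% (35 reads).

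At 3 of the 4 CpGs of that cluster L-proline was higher in all 4 pairs. At chr12:110764904 the levels were 53.1%, 71.7%, 46.8% and 67.1% on day 2 (untreated, L-proline, vitamin C and both), and 45.7%, 91.9%, 37.0% and 71.9% on day 5. At chr12:110764923 they were 51.0%, 60.4%, 43.5% and 71.1% on day 2 and 45.9%, 91.9%, 37.8% and 62.5% on day 5. At chr12:110764928 they were 57.1%, 75.5%, 50% and 65.8% on day 2 and 51.4%, 94.6%, 32.6% and 68.8% on day 5. At chr12:110764946 the levels were 66.7%, 64.5%, 34.1% and 56.8% on day 2 and 43.8%, 90.0%, 38.2% and 54.2% on day 5, higher with L-proline in 3 of 4 pairs and with overlapping groups. A further CpG of the cluster, 110764888, was listed in 7 libraries and read 94.1% in the L-proline library of day 5 and 23.8% in the untreated one.

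Fisher's exact test compared pairs of libraries at single CpGs, adjusted over all 622768 CpGs, with calls at an adjusted p below 0.05 where the libraries were 20 points or more apart. Such a test compares 2 libraries and covers counting error only. Between L-proline and untreated cells on day 5, 3 of the 21 CpGs were called higher, against 0.715% of all CpGs. They were chr12:110764904 (adjusted Fisher's exact p = 0.00905), 110764923 (0.0108) and 110764928 (0.0127). These 3 CpGs lie close enough to share reads, with 37 reads at each in the L-proline library. Their calls are therefore not independent, and their number cannot be read against the share of all CpGs. In the other 3 L-proline comparisons Fisher's exact test called none of the 21 higher, against 0.0954% (L-proline with untreated, day 2), 0.321% (both agents with vitamin C, day 2) and 0.0872% (the same on day 5) of all CpGs. There 2, 4 and 3 of the 21 were higher before adjustment, at p below 0.05, against 4.23%, 3.66% and 3.46% of all CpGs. The tile over this cluster (chr12:110764001-110765000), which also holds 1 CpG of the first cluster, had an L-proline difference of 23.7 ± 11.2 points and a log2 coefficient of 1.51 (SE 0.44, limma adjusted p = 0.230). It was not called, and limma called no tile of the genome higher for L-proline (0%). Before adjustment 7613 tiles were higher and 385 lower at p below 0.05.

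**Figure D3:**
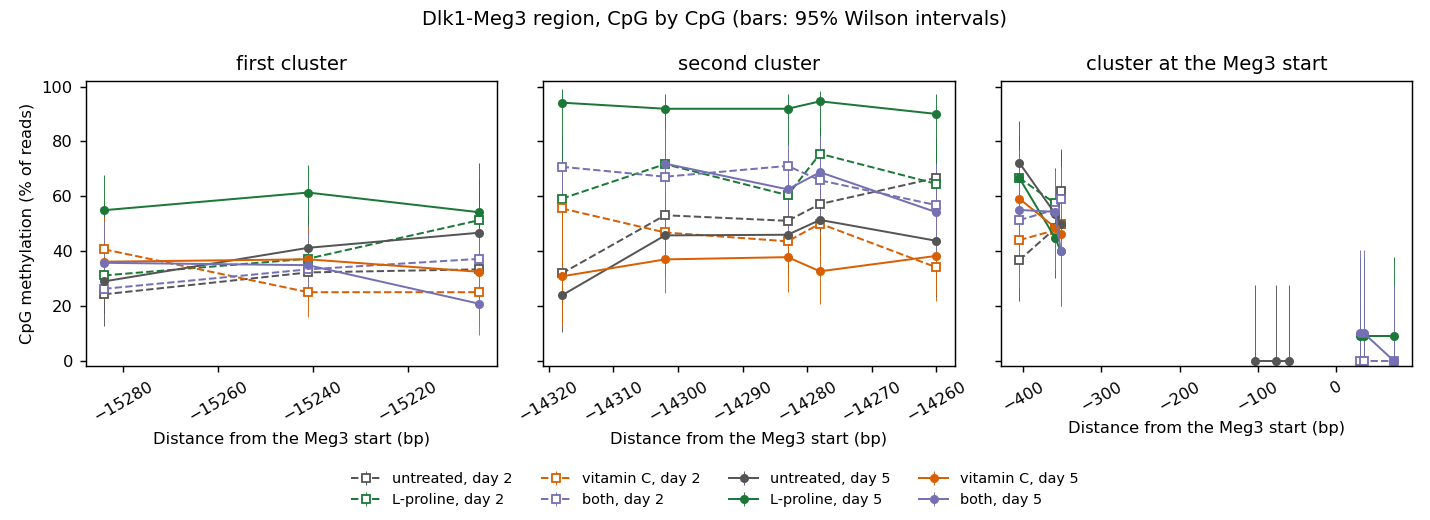
Methylation (y axis, % of reads, with 95% Wilson intervals) of the Dlk1-Meg3 CpGs against distance from the Meg3 start (x axis, bp), in 3 panels for the 3 clusters, with lines joining CpGs of 1 library at most 100 bp apart. The L-proline library of day 5 lies at 90.0% to 94.6% across the 4 CpGs of the second cluster covered in all libraries, and CpGs near the start lie between 0% and 10% where listed.

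The same cluster was lower with vitamin C, by -13.6 ± 10.5 points (SD, 4 pairs, lower in 4 of 4), with overlapping groups. The pair differences were -13.4 and -2.84 on day 2 and -10.3 and -27.8 on day 5, and without the last pair the mean was -8.84. Its tile had a vitamin C difference of -13.3 ± 11.1 points and a log2 coefficient of -0.90 (limma adjusted p = 0.129), and was not called. The first cluster, between -15284 and -15205 bp, read 29.9%, 39.8%, 30.2% and 32.2% on day 2 (untreated, L-proline, vitamin C and both) and 38.9%, 56.8%, 35.2% and 30.5% on day 5, with an L-proline difference of 6.28 ± 9.77 points (SD, 4 pairs). Here too the L-proline library of day 5 was the highest. Its CpGs at chr12:110763965 and 110764001 were lower with vitamin C in all 4 pairs, by -10.4 ± 10.8 and -17.5 ± 10.9 points (SD), and that at 110763922 in 2 of 4 pairs, by -0.13 ± 15.4 points.

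The third Dlk1-Meg3 cluster, in front of Meg3, had a narrower spread. Its 3 CpGs covered in all libraries, at -405, -359 and -352 bp, averaged 49.0%, 58.0%, 47.2% and 55.1% on day 2 and 58.6%, 50.5%, 51.3% and 49.8% on day 5 in the same order of treatments. The vitamin C difference was -3.18 ± 2.90 points and the L-proline difference 1.82 ± 8.14 points (SD, 4 pairs), and the groups overlapped for both. The tile (chr12:110778001-110779000) had a vitamin C difference of -2.69 ± 3.55 points (limma adjusted p = 0.761). In the L-proline library of day 5, the CpG at chr12:110778847 was 44.7% and that at 110778854 was 40%, the lowest or tied for the lowest of the 8 libraries, and that at 110778801 was 66.7%, against 72.2% in untreated cells. The high level of that library at the middle cluster was thus not seen at these CpGs.

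Closer to the Meg3 start, few libraries listed a CpG, and those CpGs read low. The capital CpGs of the Meg3 promoter at -103, -77 and -60 bp were listed in untreated cells of day 5 only, each with 0 of 10 reads methylated, which allows up to 30%. Those at 31 and 36 bp, and a further CpG at 74 bp beyond the printed sequence, were listed in 3 libraries. They read 0 of 13 reads in doubly treated cells of day 2 and 9.09% (1 of 11 reads) with L-proline on day 5. In doubly treated cells of day 5 they read 10% (1 of 10 reads) at 31 and 36 bp and 0% at 74 bp. Between -352 bp and these CpGs the level thus went from 40% or more to 10% or less in the 4 libraries that listed both. The depth there, 10 to 13 reads, cannot show differences between treatments.

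Counts of CpGs placed the members beside the genome. Neighbouring CpGs of a cluster can share reads, so the 21 are not independent of each other. Of the 21, 20 had a lower mean with vitamin C, the exception being chr12:110778847 at 0.42 points higher. A lower mean was found in 59.5% of all CpGs and in 94.9% of those with a mean between 20% and 80%. The members' count was near that of these CpGs of intermediate mean, a set chosen by a mean that includes the vitamin C libraries. The median difference of the 21 was -9.44 points, against -18.4 for CpGs of intermediate mean. In all 4 pairs, 9 of the 21 were lower with vitamin C, 1 at H19, 5 at Dlk1-Meg3 and 3 at Rasgrf1. The same held for 14.0% of all CpGs and for 52.4% of those of intermediate mean. The vitamin C libraries lay below all others with no overlap at 4 of the 21 CpGs, against 6.56% of all CpGs and 24.1% of those of intermediate mean. For L-proline, 17 of the 21 had a higher and 4 a lower mean, with a median of 6.18 points. A higher mean was found in 53.9% of all CpGs and in 85.7% of those of intermediate mean, whose median was 9.5 points. In all 4 pairs 5 were higher, the 3 in the middle Dlk1-Meg3 cluster given above and chr7:149764109 and 149764147 at H19, against 6.90% of all CpGs and 29.8% of those of intermediate mean. Over the libraries the median range of a member CpG was 35.6 points, against 47.8 for CpGs of intermediate mean. Their median coverage was 39.9 and 31.6 reads, in that order, and a range also depends on the number of reads.

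Fisher's exact test called 0, 1, 1 and 3 of the 21 CpGs lower in the 4 vitamin C comparisons, against 0.487%, 0.609%, 2.95% and 5.67% of all CpGs. The comparisons were vitamin C with untreated on day 2, both agents with L-proline on day 2, and the same pairs on day 5. Before adjustment 5, 3, 3 and 9 of the 21 were lower at p below 0.05, against 4.81%, 6.86%, 9.88% and 13.1% of all CpGs. The Rasgrf1 CpG at chr9:89769488 was called with both agents against L-proline on day 2 (69.8% against 96.6%, adjusted Fisher's exact p = 0.0123) and with vitamin C against untreated on day 5 (64.6% against 93.0%, 0.0210). The 3 CpGs called for both agents against L-proline on day 5 came 1 from each region. They were chr9:89769450 (39.1% against 83.0%, adjusted Fisher's exact p = 0.00896), chr12:110763965 (34.8% against 61.3%, 0.0422) and chr7:149764070 (19.2% against 63.6%, 0.0488).

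The surroundings of each region were compared in the same pairs. CpGs within 100 kb of either end had vitamin C differences of -3.48 ± 1.16 points at H19 (125 CpGs), -6.03 ± 3.69 at Dlk1-Meg3 (69 CpGs) and -8.74 ± 3.29 at Rasgrf1 (34 CpGs). The vitamin C differences of the regions, taken against those of their flanks, were -6.01 ± 1.66, -3.16 ± 3.56 and -16.2 ± 3.24 points, each below 0 in 4 of 4 pairs (SD; each with an exact permutation p of 0.125). These gaps depended on the flanking CpGs taken. The H19 flanks had a mean of 11.6% to 17.2% per library, far below the region. Among flanking CpGs of mean 20% to 80%, a comparison chosen after seeing the data, the H19 gap was 17.9 ± 9.23 points (9 CpGs, above 0 in 4 of 4 pairs). The Dlk1-Meg3 gap was then 7.33 ± 12.2 (14 CpGs, above 0 in 3 of 4) and the Rasgrf1 gap -4.23 ± 5.39 (9 CpGs, below 0 in 3 of 4). These flanking CpGs were chosen by a mean that includes the vitamin C libraries. With flanks of 50 kb the H19 gap was 1.16, and the Dlk1-Meg3 gap was below 0 in 3 of 4 pairs. With 20 reads the H19 gap was below 0 in 2 of 4 pairs, and the Dlk1-Meg3 gap was -7.39.

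Beside CpGs of intermediate mean the order was different. The 80712 CpGs outside the regions with a mean between 20% and 80% averaged 52.8%, 63.3%, 42.6% and 50.2% on day 2 (untreated, L-proline, vitamin C and both) and 63.8%, 75.2%, 39.4% and 48.8% on day 5. Their vitamin C difference was -18.5 ± 8.07 points (SD, 4 pairs). They were chosen by a mean that includes the vitamin C libraries, so the choice was not independent of this difference. Without vitamin C they averaged 63.8%, against 52.9% at H19, 55.0% at Dlk1-Meg3 and 85.2% at Rasgrf1, so levels were not matched. H19 and Dlk1-Meg3 were less low than these CpGs in 4 of 4 pairs, with gaps of 9.06 ± 7.19 and 9.36 ± 5.40 points (SD, exact sign-flip permutation p = 0.125 for each). The Rasgrf1 difference was larger than theirs in 3 of 4 pairs, with a gap of -6.38 ± 7.87 points (exact sign-flip permutation p = 0.25). The vitamin C difference of the CpGs of intermediate mean went from -10.2 and -13.1 on day 2 to -24.4 and -26.4 on day 5, while those of H19 went from a mean of -8.46 to -10.5 and those of Rasgrf1 from -23.9 to -25.9. At Dlk1-Meg3 it went from -5.04 to -13.3. Whether that change with day differed between the regions and these CpGs was not tested. The L-proline difference of the CpGs of intermediate mean was 9.70 ± 1.64 points. The Dlk1-Meg3 L-proline difference exceeded it in 2 of 4 pairs, by 3.32 ± 4.71 points, and exceeded that of its own flanks in 4 of 4 pairs, by 10.7 ± 4.88 points. Against the flanking CpGs of mean 20% to 80% it was larger in 3 of 4 pairs, by 6.88 ± 7.56 points.

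At the level of regions, L-proline at H19 and Rasgrf1 and day at all 3 regions gave differences of both signs over the pairs. With L-proline H19 was 1.28 ± 5.42 points higher (2 pairs up and 2 down, exact sign-flip permutation p = 0.75) and Rasgrf1 4.39 ± 9.61 points higher (exact sign-flip permutation p = 0.5). The tile of the middle H19 cluster was 5.58 ± 2.65 points higher with L-proline, in 4 of 4 pairs, and was not called (limma adjusted p = 0.641). Between day 2 and day 5 the differences were -2.12 ± 5.55 at H19, 2.82 ± 6.63 at Dlk1-Meg3 and -0.02 ± 9.67 points at Rasgrf1 (SD over 4 pairs; exact permutation p of 0.625, 0.75 and 1, in that order). With Benjamini-Hochberg adjustment of the 9 tests of a region, the smallest exact permutation p became 0.281.

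**Figure D4:**
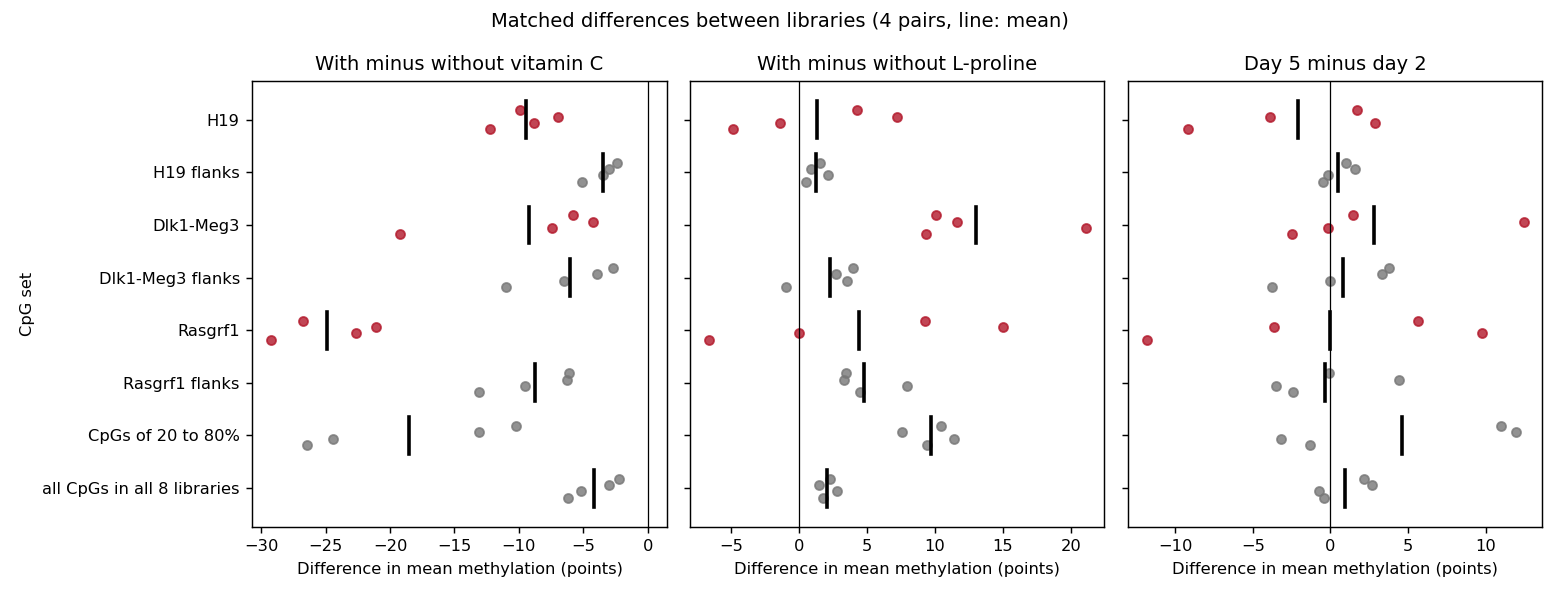
Differences between matched libraries (x axis, percentage points) in 3 panels for vitamin C, L-proline and day, for the 3 regions and for comparison sets of CpGs (y axis), with 1 point per pair and a bar at the mean. The vitamin C points lie below 0 in all 3 regions and are farthest from 0 at Rasgrf1, and the L-proline points at Dlk1-Meg3 lie between 9.30 and 21.1.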

How the data were processed

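Methylation was measured by reduced representation bisulfite sequencing in 8 libraries, 1 for each treatment and day, assigned from their labels. The submitters' processing notes name CASAVA, BSMAP 2.88 and mm9, with no roles or settings. The authors deposited, for each CpG with 10 or more reads, the fraction of reads methylated (0 to 1) and the coverage. Multiplying both and rounding gave the methylated reads. The handling of duplicates and of unconverted reads is not given in the sources. Reads of the lambda contig, listed as its own sequence, were 0.195% to 0.513% methylated per library. Libraries listed 762041 to 1006832 CpGs, with a median coverage of 27 to 56 reads in the shared set.

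Regional levels are unweighted means over CpGs with at least 10 reads in every library. All CpGs of this set are named, since each region held 12 or fewer. CpGs more than 500 bp apart start a new cluster. Matched differences were tested by flipping the signs of the 4 pairs, in all 16 ways. The labels name no culture or batch, so the spread between pairs may be technical, and pairs may share a culture. Tiles of 1 kb were fitted with limma 3.58.1 in R 4.3.3, with a pseudocount of 1 read. Single CpGs were compared between libraries with Fisher's exact test, computed by code written for this purpose. Its p-values were checked against those of scipy 1.17.1 on simulated reads. Both tests were checked on simulated data. Intervals are 95% Wilson intervals and, like the limits for 0 reads (3 reads of the total), cover counting error only, since copies of 1 molecule made by PCR could not be told apart. Reads summed over the CpGs of a cluster, region or tile count a read at each CpG that it covers. Intervals of such sums are therefore too narrow. RefSeq promoter windows were placed on mm9 CpGs by their spacing, a step added after the data were seen, and an mm9 gene annotation was not used here. The distance between the placed Begain and Meg3 starts, 487697 bp, equals that in RefSeq. The regions and comparisons were chosen with earlier results of these data known.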

Additional observations from a re-analysis of the deposited data

Results flagged for a closer look

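At 3 regions, 2 groups of matched differences had opposite signs in every pair. At H19 the difference of day 5 from day 2 was 1.72 and 2.86 points without L-proline and -3.92 and -9.16 with it, a difference between the groups of -8.83. The same contrast read the other way gives the L-proline difference as 4.21 and 7.18 points on day 2 and -1.42 and -4.85 on day 5, again -8.83 apart. At Rasgrf1 the day difference was 5.64 and 9.79 points without L-proline and -3.67 and -11.8 with it, -15.5 apart, which is also the amount by which the L-proline difference on day 5 lay from that on day 2. At Dlk1-Meg3 the day difference was 1.47 and 12.5 points without vitamin C and -0.17 and -2.48 with it, -8.29 apart. Permuting the 4 pairs between the groups gave an exact p of 0.333 for each of these, the smallest that 6 groupings allow, so none can pass a threshold of 0.05 in this design.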

How the results depend on the processing

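No paired analysis by replicate was possible because each treatment and day had 1 library, so no replicate block could be fitted. The vitamin C differences of the 3 regions and the L-proline difference of Dlk1-Meg3 kept the sign of their mean with pooled reads, 20 reads, all listed CpGs and each pair left out. The order of the pairs was not always kept. For vitamin C, H19 was lower in 3 of 4 pairs with 20 reads (-6.76) and with all listed CpGs (-4.75), and Dlk1-Meg3 in 3 of 4 with all listed CpGs (-7.99). Leaving out pairs gave -10.3 to -8.57 points at H19, -10.8 to -5.84 at Dlk1-Meg3 and -26.2 to -23.5 at Rasgrf1 for vitamin C, and 10.3 to 14.3 at Dlk1-Meg3 for L-proline. Chosen after seeing the data, leaving out pairs in single clusters gave 20.2 to 31.6 (L-proline, middle Dlk1-Meg3 cluster), -17.1 to -8.84 (vitamin C, same cluster) and -15.0 to -11.0 (vitamin C, middle H19 cluster).

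Some values changed sign. With all listed CpGs the L-proline difference at H19 was -1.56 and the day difference at Dlk1-Meg3 -3.25. The day difference at Rasgrf1 was 0.40 with pooled reads and 0.63 with 20 reads. With pairs left out, the ranges were -0.69 to 3.32 (L-proline, H19), -3.79 to 0.22 (day, H19), -0.40 to 4.58 (day, Dlk1-Meg3) and -3.28 to 3.92 (day, Rasgrf1). The vitamin C gap of H19 to flanks of 50 kb was 1.16. To flanking CpGs of mean 20% to 80%, chosen after seeing the data, the vitamin C gaps were 17.9 at H19 and 7.33 at Dlk1-Meg3. To all flanking CpGs within 100 kb these gaps were -6.01 and -3.16, each below 0 in 4 of 4 pairs. The cause was not tested for any of these.

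With libraries centred to one median, limma log2 coefficients were 0.55 (vitamin C) and -0.19 (day) for the Dlk1-Meg3 tile from 110764001. They were 1.30, -0.67 and -0.31 (vitamin C, L-proline, day) for that from 110778001, 0.68 (vitamin C) and -0.46 (L-proline) for the H19 tile, and -0.49, -0.35 and -0.34 for the Rasgrf1 tile. With a library left out, day coefficients ranged from -0.29 to 0.37 and from -0.12 to 0.18 for the Dlk1-Meg3 tiles and from -0.27 to 0.24 for Rasgrf1, and the vitamin C coefficient of the tile from 110778001 from -0.29 to 0.0043. The Rasgrf1 vitamin C call held in all 8 fits with a library left out and with a pseudocount of 0.5. This tile could not be tested with 20 reads or 5 CpGs.

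Tiles called lower for vitamin C by limma numbered 205 with centring (0.409% of tiles), 4285 of 28729 with at least 5 CpGs (14.9%) and 3115 of 26645 with 20 reads (11.7%), against 11645 of 50167 (23.2%). With a library left out they numbered 2659 to 14136: 2659 without both agents on day 5, 3092 without untreated on day 5, 3740 without vitamin C on day 5, 4705 without L-proline on day 5 and 7733 without both agents on day 2. Tiles called higher by limma numbered 0 to 1. At 20 reads in all libraries 5, 7 and 2 CpGs of H19, Dlk1-Meg3 and Rasgrf1 were left.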

Other observations

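Other promoter windows of the H19 and Dlk1-Meg3 surroundings were placed in the same way. That of Dio3, an imprinted deiodinase gene at the far end of the Dlk1-Meg3 domain, had 17 CpGs covered in all 8 libraries with a mean of 0% to 0.963% per library. The 5 overlapping or neighbouring windows of Begain, at the other end, were between 0% and 1.60%. Their differences with vitamin C were smaller than 1 point. The window of Mrpl23, a mitochondrial ribosomal protein gene beyond H19, had 5 CpGs covered in all libraries, at 0% to 8.29%, with a vitamin C difference of -4.74 ± 1.46 points (SD, 4 pairs) and an L-proline difference of 2.87 ± 1.88 points. These values were looked at after the data were seen, with no test.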
